A study of Homo sapiens with 9 samples.

Results

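RNA precipitated with PABPC, the poly(A) binding protein of the cytoplasm, was set against input RNA in HEK293T cells, an established line of human embryonic kidney origin that carries the SV40 large T antigen. The comparison rested on 3 PABPC immunoprecipitates and 3 input libraries of wildtype cells, taken from a series of 9 libraries that also held 3 immunoprecipitates of the nuclear protein PABPN. Cells were fixed with 0.1% formaldehyde for 10 min and sonicated, the lysate of each biological replicate was split between antibodies, and the recovered RNA (RIP) was depleted of rRNA and sequenced as 75 nt single-end reads. Too little RNA came down with the isotype control antibody to be sequenced, so no mock precipitate stands beside these values. Of 51268 genes listed for the PABPC RIP, 14844 had a baseMean above 50 and make up the set described here. baseMean is the mean of the normalised counts over the 6 libraries. The gene nearest to the limit on the inside had a baseMean of 50.0003 and a log2 fold change of -0.86, and the nearest on the outside had 49.9994 and -1.62.

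PABPC coats the poly(A) tails of mRNAs in the cytoplasm, where it binds the translation initiation factor eIF4G and also recruits deadenylases. Its nuclear counterpart PABPN binds tails while they are being made. Replication-dependent histone mRNAs end in a stem-loop, and the short transcripts of RNA polymerase III end in a few uridines, so both lack the tail on which PABPC sits.

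Counts per library were not part of the processed tables, which held the authors' DESeq2 estimates for each gene. A gene is therefore described by its mean normalised count in input and in PABPC RIP, both derived from baseMean and the fold change, and by the log2 fold change with its standard error (SE) over 3 against 3 libraries. A gene was called enriched above a log2 fold change of 0.5 and depleted below -0.5, each with an adjusted p of at most 0.01. Depths derived from the lowest baseMean values were 42.5 to 49.8 M reads counted in genes in input and 36.5 to 52.2 M in PABPC RIP (M, megareads). All 10 of the markers listed for HEK293T had a baseMean above 50, as did 1 of 12 markers of other cell types, the collagen gene COL1A1 (259 in input and 381 in PABPC RIP). Over the 14843 genes with an adjusted p the median log2 fold change was 0.14, and 5703 genes (38.4%) were enriched and 4802 (32.4%) depleted.

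The 3′ ends of a few RNAs show the elements that direct or replace polyadenylation. Each line gives the last 30 bases of the canonical transcript on hg38 (GENCODE release 44), 5′ to 3′, for the member of a family with the highest baseMean among those that hold the element in this window. Capitals mark the stem-loop in H1-4 and the hexamer AATAAA, the signal for cleavage and polyadenylation, in H2AZ1 and SNHG29.
H1-4 (chr6:26157086-26157115, + strand): caacccaaaGGCTCTTTTCAGAGCCaccca
H2AZ1 (chr4:99948088-99948117, - strand): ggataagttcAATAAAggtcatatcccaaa
SNHG29 (chr17:16480220-16480249, + strand): taacagaAATAAAgtacacaataagtgtaa

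H1-4, a linker histone made in S phase, had a mean of 21598 in input and 2758 in PABPC RIP, a log2 fold change of -2.97 (SE 0.12, adjusted p = 5.36e-127). H2AZ1, a histone variant made throughout the cell cycle, went the other way, from 8015 to 34238 (2.09, SE 0.16, adjusted p = 2.23e-39). SNHG29, a lncRNA that hosts small nucleolar RNAs, had 12990 and 41367 (1.67, SE 0.10, adjusted p = 1.56e-63). RN7SL1, the RNA of the signal recognition particle and a transcript of RNA polymerase III, dropped from 111268 to 4025 (-4.79, SE 0.19, adjusted p = 6.45e-142). Both RNAs shown with the hexamer were thus above input, and H1-4 and RN7SL1 were below.

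Across whole classes the hexamer was about as frequent in enriched as in depleted coding genes. AATAAA or ATTAAA, searched on the transcript's own strand in the last 50 bases and counted once where both occurred, stood in 75.0% of the 14812 genes with a transcript, and AATAAA alone in 60.9%. Among protein coding genes other than replication-dependent histones, either hexamer was present in 81.5% of the enriched, 84.7% of the depleted and 81.5% of the remaining genes. Among lncRNAs it was present in 50.5% of the 366 enriched and 39.5% of the 1020 depleted. Among lncRNAs whose introns summed to 5 kb or less, the median fold change was 0.96 (log2) for the 219 genes with a hexamer and 0.80 for the 215 without. The stem-loop motif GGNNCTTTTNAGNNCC, searched in the last 100 bases of the same strand, occurred in 48 transcripts (0.324%). Of these 47 were replication-dependent histones and 1 was the histone pseudogene H2BC19P (0.65, SE 0.17).

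Messages took a larger share of the reads in PABPC RIP than in input. Protein coding genes held 91.3% of the normalised counts of input and 97.0% of those of PABPC RIP. lncRNAs went from 6.37% to 2.42%, and miscellaneous RNAs, the class of 7SK and of the signal recognition particle RNA, from 1.30% to 0.0253%. The range within each class was wide, as the plot of classes shows.

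**Figure D1:**
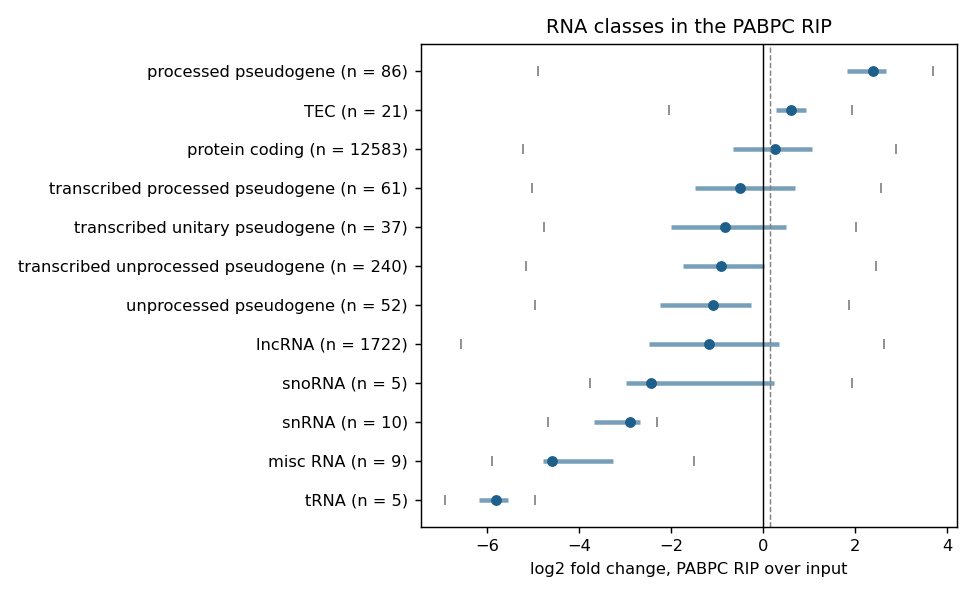
Log2 fold change of PABPC RIP over input for each RNA class with at least 5 genes above the level limit; points are medians over genes, thick lines the interquartile range over genes, ticks the lowest and highest gene, and the dashed line the median of all genes (0.14). Processed pseudogenes had the highest median (2.38), although only 32 of the 86 had an input mean above 50. The lowest was that of tRNAs (-5.82, only 5 genes with a median SE of 0.59). lncRNAs and protein coding genes each spread over more than 7 log2 units.

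By DESeq2 call, 5188 of the 12583 protein coding genes were above input and 3516 below it (median 0.25). Of 1722 lncRNAs, 366 were enriched and 1029 depleted, with a median of -1.17. Pseudogene classes differed. The 86 processed pseudogenes, which are reverse-transcribed copies of mRNAs, held 80 enriched genes and 1 depleted, with a median of 2.38. Transcribed unprocessed pseudogenes, which are duplicated genes that keep their introns, had 26 enriched and 141 depleted of 240 (median -0.92), and unprocessed pseudogenes 6 and 33 of 52 (median -1.08). The 61 transcribed processed pseudogenes, which arose by reverse transcription too, had 15 enriched and 28 depleted (median -0.51). Reads of the 86 processed pseudogenes, as near-identical copies of messages, can be split between copy and parent by the counting, so their values are uncertain. Only 32 of the 86 had an input mean above 50, and 27 of these were enriched (median 1.95). The others passed the level limit only through their RIP means, which favours enriched genes in this class.

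Small RNAs without tails lay low, except for SNORA104 and SNORA11F, which was not called (0.22). The 10 spliceosomal snRNAs were all depleted, from -4.67 in RNU6ATAC (SE 0.26), the minor spliceosome's U6-like RNA, to -2.32 in RNU5D-1 (SE 0.29). The 5 tRNAs ran from -6.92 to -4.96 (median SE 0.59). They were the only ones of 299 listed above the level limit, which they passed through their input counts. 7SK, which holds the elongation factor P-TEFb inactive, had 407437 reads in input and 6800 in PABPC RIP (-5.90, SE 0.12). RMRP, the RNA of RNase MRP, had 174295 and 5876 (-4.89, SE 0.19), and RNY1, a Y RNA, 1091 and 74 (-3.88, SE 0.18). VTRNA1-3, a vault RNA, was the least depleted of its group (-1.50, SE 0.37, adjusted p = 0.000105). Among 5 snoRNAs, SNORD3A, the U3 RNA that guides early rRNA cleavage, had -3.77 (SE 0.15), whereas SNORA104 was enriched (1.93) at input and RIP means of 53.0 and 201.3.

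Intron length ordered the coding genes more closely than any other feature measured. The bases of a gene outside all its annotated exons were summed for the 12573 coding genes found in the GENCODE annotation. Spearman's correlation across these genes with the fold change was -0.76 for intron length, against -0.53 for coding sequence, -0.48 for the deposited length, -0.22 for the 5′ UTR and -0.19 for the 3′ UTR. These are descriptions over genes of the same 6 libraries and genes are not independent replicates, so no p is attached. GC content of the transcript (0.30) and its longest run of A (-0.27) were near 0 once the rank of intron length was removed (0.04 and -0.01). Coding length kept -0.32 after that adjustment, and intron length kept -0.69 after adjustment for coding length. 3′ UTR length went from -0.19 to 0.13.

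The median was 1.81 in the 421 coding genes that had introns of 1 kb or less in sum, of which 395 were enriched and 4 depleted. The median passed below 0 between 20 to 50 kb (0.28, 3045 genes) and 50 to 100 kb (-0.32, 2063 genes). Above 200 kb it was -2.16, with 9 enriched and 1008 depleted of 1082. LRP1B, a receptor gene with 1883239 intronic bases, had 8636 in input and 232 in PABPC RIP (-5.22, SE 0.12). AUTS2, among the 10 genes with the most reads in input, had 57548 and 5490 (-3.39, SE 0.12). At the other end, TMSB10, an actin-binding peptide with 555 intronic bases, had 4872 and 27803 (2.51, SE 0.11).

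**Figure D2:**
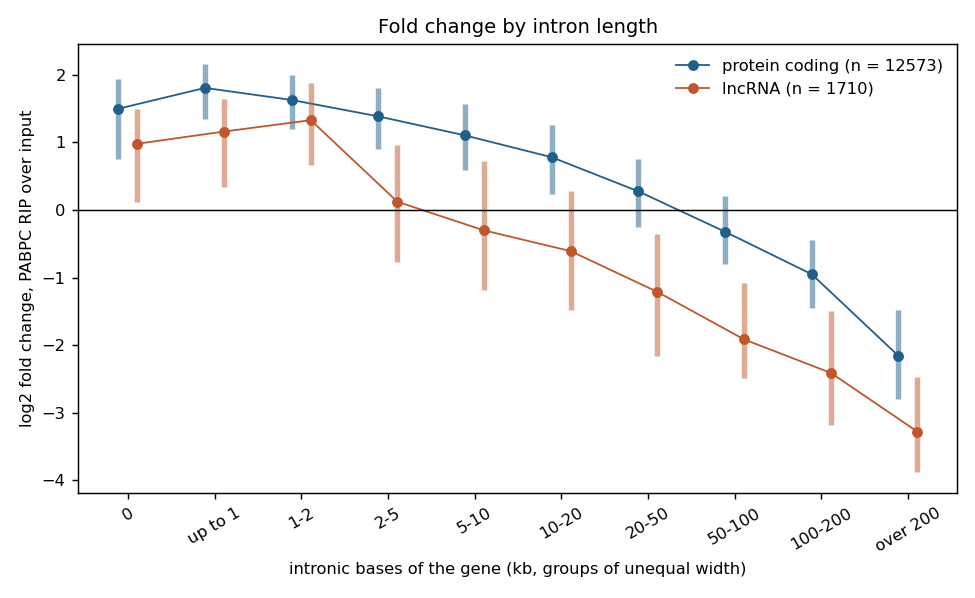
Log2 fold change of PABPC RIP over input by the number of intronic bases of the gene in kb (0, then groups of unequal width), for 12573 protein coding genes (blue) and 1710 lncRNAs (orange); points are medians and vertical lines the interquartile range over genes. Genes with no intronic base had medians of 1.50 (coding) and 0.98 (lncRNA), the highest medians were 1.81 up to 1 kb in coding genes and 1.33 at 1 to 2 kb in lncRNAs, and both classes declined from there to -2.16 and -3.28 over 200 kb. lncRNAs lay below coding genes in every group.

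Reads in introns and exons were counted together for each gene by the authors. Spliced mRNA and unspliced RNA of a gene therefore cannot be told apart in these values, and neither can a lower share of bound mRNA and a larger share of intronic reads in input.

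lncRNAs followed the same order (Spearman -0.69 over 1710 genes), and at a given intron length they were lower than coding genes. The gap between the medians was -0.30 at 1 to 2 kb, where lncRNAs had 1.33, and -1.59 at 50 to 100 kb, where they had -1.92. With introns of 5 kb or less, 256 of 434 lncRNAs were enriched and 81 depleted, and with more than 100 kb, 8 of 442 were enriched and 410 depleted. The deposited length, which leaves out introns, had a correlation of only -0.11 with the fold change of lncRNAs.

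Genes with a single exon allowed coding length to be followed with no intron present. Of 155 such coding genes, leaving out replication-dependent histones and mitochondrial genes, 143 were enriched and 0 depleted by the DESeq2 call, with a median of 1.56 and a range from 0.26 to 2.67. RHOB, a small GTPase, had 7072 in input and 26710 in PABPC RIP (1.92, SE 0.10, adjusted p = 7.73e-78), and SOX11, a neural transcription factor, 12936 and 28984 (1.16, SE 0.10, adjusted p = 3.72e-32). FZD8, a Wnt receptor, did not pass (0.36, SE 0.15, adjusted p = 0.0247). Ordered by coding length and cut into 4 groups of like size, these genes had medians of 1.94, 1.68, 1.37 and 1.18, with coding lengths from 162 to 711 bases in the first group and from 1623 to 3318 in the last. Spearman's correlation with coding length was -0.54 across the 155 genes, close to that over all coding genes, and with 3′ UTR length -0.14. In these genes GC content (0.48) and the longest run of A (-0.35) were further from 0 than in all coding genes after adjustment for introns. The 38 single-exon replication-dependent histones, by contrast, were all depleted (median -2.90). Among 157 single-exon lncRNAs, 94 were enriched and 31 depleted (median 0.96).

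Both lengths were set together in a grid of 25 groups, 5 by intron length and 5 by coding length. In the group of coding genes with the shortest introns, up to 7412 bases, the median went from 1.84 for the shortest coding sequences to 0.54 for the longest. In that with the longest introns, from 102871 bases, it went only from -1.12 to -1.47. EIF4G2, a translation factor with short introns and a long coding sequence, was enriched (1.30, SE 0.20, adjusted p = 5.88e-10). SRRM2, a splicing factor with a coding sequence of 8259 bases and 6945 intronic bases, was not called (-0.24, SE 0.16, adjusted p = 0.185), and EPPK1, a cytoskeletal linker with 15267 coding bases, was depleted (-0.93, SE 0.15, adjusted p = 5.67e-10).

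**Figure D3:**
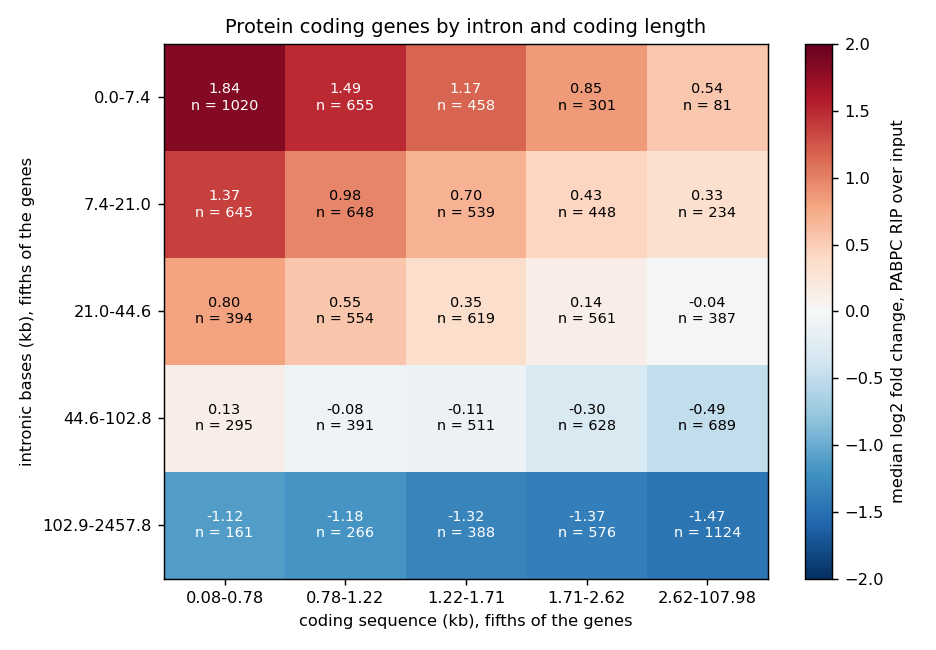
Median log2 fold change of PABPC RIP over input for 12573 protein coding genes, cut into 5 groups of like size by intronic bases (down, kb) and 5 by coding sequence (across, kb); colour and the upper number give the median and n the genes in the group. Medians fell from 1.84 at the upper left, short in both, to -1.47 at the lower right, long in both.

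Exceptions to the intron order were chosen by size, after their values were seen, among genes with a baseMean above 1000. Of 2592 coding genes with more than 100 kb of intron, 74 were enriched. The highest, SCOC, a small protein of the Golgi and autophagy with 122147 intronic bases, had 1063 in input and 3991 in PABPC RIP (1.91, SE 0.14). POLR1D, a subunit shared by RNA polymerases I and III, had 2284 and 6463 (1.50, SE 0.09), and MRPL33, a mitochondrial ribosomal protein with 214839, had 709 and 1971 (1.47, SE 0.13). SNHG16 was the highest lncRNA of this kind, with 107483 intronic bases and 6084 and 23619 reads (1.96, SE 0.11). Several of these genes span other annotated genes, and their intron sums depend on the most distant annotated exon.

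Of 1886 coding genes with 5 kb of intron or less, 69 were depleted. These were 40 replication-dependent histones, 5 mitochondrially encoded genes and 24 others, of which 2 had a baseMean above 1000. MAN2C1, a cytosolic mannosidase, had 5472 and 2852 (-0.94, SE 0.11), and HSPA5, the ER chaperone BiP, 5443 and 3715 (-0.55, SE 0.19, adjusted p = 0.00828). MALAT1, an intronless lncRNA of nuclear speckles whose mature end is a triple helix and not a poly(A) tail, had 39450 in input and 1221 in PABPC RIP (-5.01, SE 0.11). NEAT1, the scaffold of paraspeckles, had 14286 and 4362 (-1.71, SE 0.12), and TERC, the telomerase RNA, 2529 and 176 (-3.84, SE 0.14). The lncRNA with the lowest value, ENSG00000259001 (-6.57, SE 0.12), overlaps RPPH1, the RNA of RNase P, in the annotation, and ENSG00000282885 (-4.72, SE 0.17) overlaps RN7SL2. In the opposite direction, NORAD, a cytoplasmic lncRNA that binds Pumilio proteins, had 4618 and 11900 (1.37, SE 0.10), and DANCR, a cytoplasmic snoRNA host, 1565 and 6264 (SE 0.14, adjusted p = 7.36e-47).

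Families defined by symbol were next described by role. Ribosomal proteins and elongation factors had the highest medians among the families of at least 5 genes. All 85 cytosolic ribosomal protein genes were enriched (median 2.06), with RPL39L lowest at 1.17 (SE 0.14). All 11 elongation factors and related messages with a 5′ terminal oligopyrimidine tract were enriched too. EEF1A1, which brings tRNA to the ribosome, had 75165 in input and 264040 in PABPC RIP (1.81, SE 0.18), and EEF2, the translocase, 85949 and 237145 (1.46, SE 0.22). PABPC1, the message of the precipitated protein itself, had 16660 and 57722 (1.79, SE 0.12). Of 53 initiation factors, 39 were enriched and 6 depleted (median 1.01), with EIF4G3, a long-intron gene for an eIF4G paralogue, lowest (-2.16, SE 0.12). Aminoacyl tRNA synthetases had 14 enriched and 6 depleted of 36 (median 0.33). The enriched share of 38.9% was near the 38.4% of all genes, and the depleted share was 16.7% against 32.4%. Of the 10 genes with the most reads in PABPC RIP, 9 were protein coding, and all 9 were enriched. Choosing genes by their RIP mean favours enriched ones. Of the 10 with the most reads in input, 3 were enriched and 7 depleted.

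Nuclear-encoded mitochondrial messages were also high. Of 80 respiratory chain genes, 74 were enriched and 2 depleted (median 1.75), as were 65 and 4 of 77 mitochondrial ribosomal proteins (median 1.50) and 22 and 1 of 24 import subunits (median 1.74). Of the mRNAs encoded in mitochondria, whose short tails lie out of reach of a cytosolic protein in intact cells, 9 were in the set described here. Among these 9, 0 were enriched and 5 depleted. MT-CO2 was highest (0.37, SE 0.16, adjusted p = 0.0328) and MT-ND4L lowest (-1.87, SE 0.13), and MT-ND5 had 15333 in input and 4647 in PABPC RIP (-1.72, SE 0.18).

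Several housekeeping families had most members enriched. All 17 actins, tubulins and their partners were called (median 1.27), 11 of 16 glycolytic enzymes (median 1.18, with TPI1 highest at 2.07, SE 0.15), 32 of 43 proteasome subunits (median 1.10), 7 of 9 CCT chaperonin subunits (median 0.84) and 21 of 26 ER chaperones and translocon subunits (median 1.27). Heat shock and cytosolic chaperones had 8 of 17 enriched (47.1%, against 38.4% of all genes) and 0 depleted by the DESeq2 call. Their median of 0.95 was above that of the CCT subunits. Their median SE was 0.21, against 0.14 over all genes. Glycolytic genes held 2 with long introns, LDHB (119533 intronic bases, 1.17, SE 0.14) and PGK1 (213120, 1.20, SE 0.13). Beyond these families, short-lived messages such as JUN and JUND, both subunits of AP-1, were enriched in 28 of 29 cases (median 1.22). They ran from 0.58 (SE 0.12) in JUN to 2.13 (SE 0.13) in JUND, and their median intron length was 859 bases. Of 19 messages of the integrated stress response, 8 were enriched (42.1%, near the 38.4% of all genes) and 0 depleted (against 32.4%). Their median was 1.03, against 0.14 over all genes, and their median SE was 0.22, against 0.14. ATF4, the main transcription factor of this response, was highest (2.26, SE 0.18).

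Families of large genes lay at the other side. All 9 dynein heavy chains were depleted, from -3.28 (SE 0.12) in DNAH14 to -0.65 (SE 0.12) in DYNC1H1, the cytoplasmic motor, as were 34 of 40 genes with giant coding sequences (median -1.24) and 20 of 22 megabase genes at fragile sites (median -3.66). TTN, the muscle protein titin, had 141 in input and 20 in PABPC RIP (-2.84, SE 0.32). Kinesins had 7 enriched and 13 depleted of 38. The depleted share of 34.2% was near the 32.4% of all genes, and the enriched share was 18.4% against 38.4%. CNTNAP2, a neuronal adhesion protein with 2288620 intronic bases, was the only enriched fragile-site gene (0.65, SE 0.11, adjusted p = 3.56e-08).

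**Figure D4:**
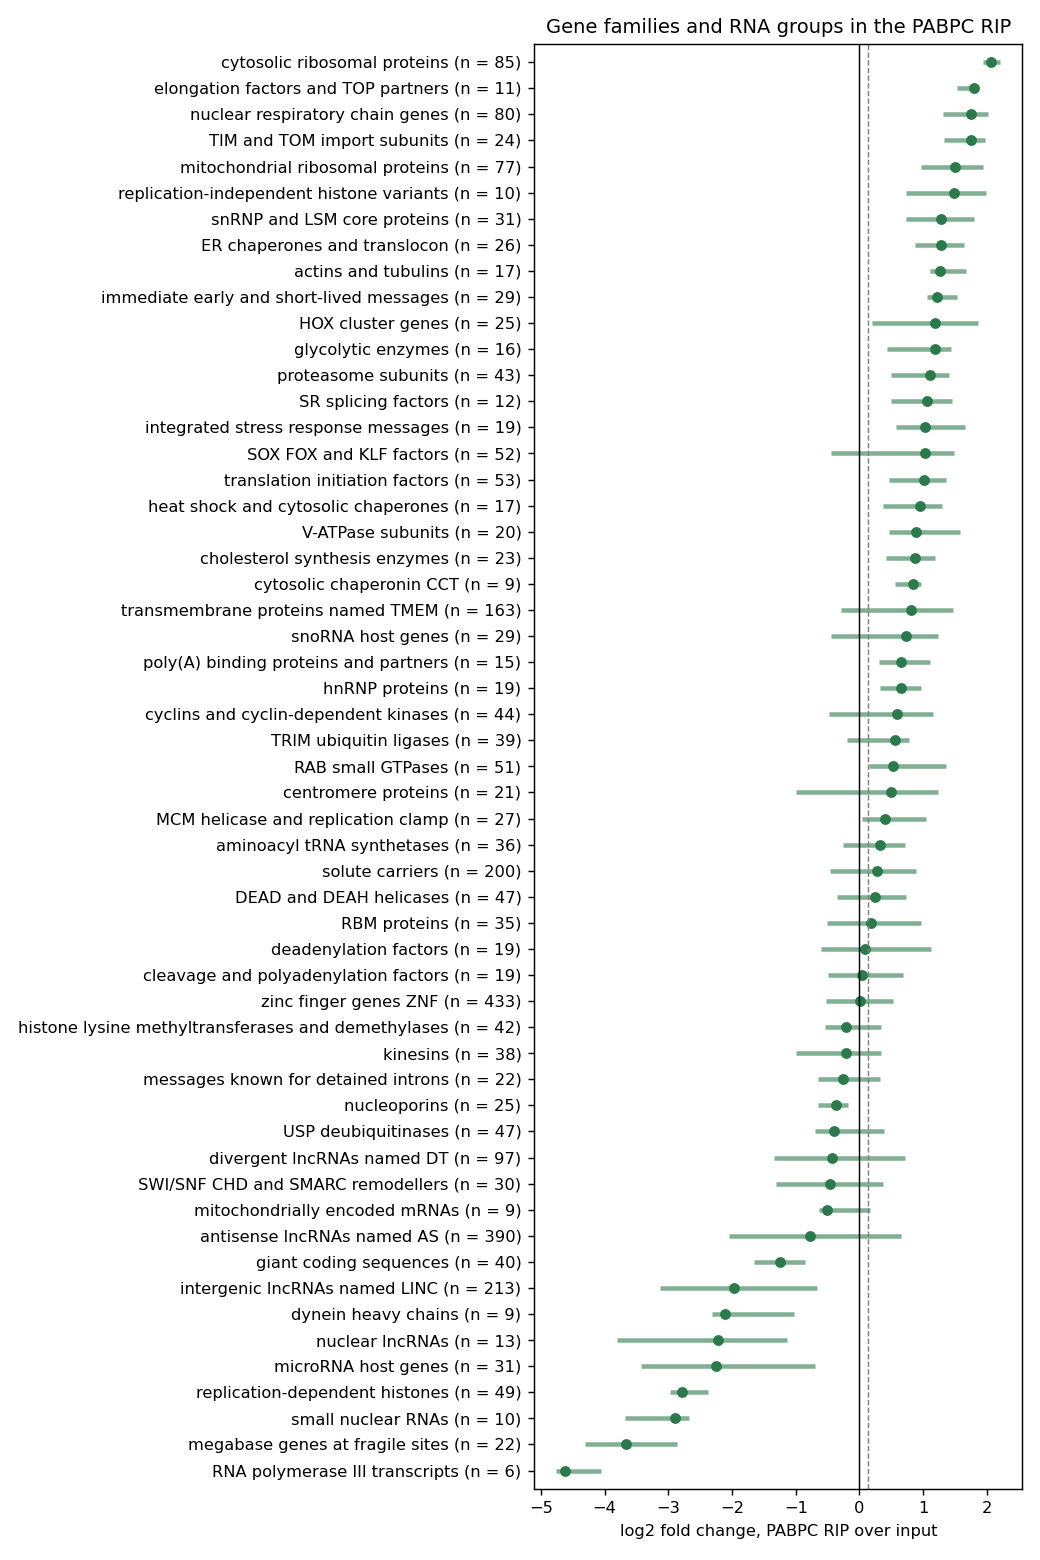
Log2 fold change of PABPC RIP over input for families with at least 5 genes, with 1 family not reported here left out; points are medians, lines the interquartile range over genes, and the dashed line the median of all genes (0.14). Cytosolic ribosomal proteins had the highest median (2.06) with a narrow spread, and RNA polymerase III transcripts the lowest (-4.63).

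Because families differ in gene length, each coding gene was also set against the median of the coding genes in its own group of the grid. This comparison was added after the data had been examined and carries no test. Cytosolic ribosomal proteins were above their group in 77 of 85 cases, with a median difference of 0.33, and elongation factors and their partners in 10 of 11 (0.62). Glycolytic enzymes were above in 13 of 16 (0.45), V-ATPase subunits in 17 of 20 (0.41) and respiratory chain genes in 62 of 80 (0.27). Proteasome and CCT subunits lay close to their groups, with 24 of 43 and 4 of 9 above (0.06 and -0.005). Dynein heavy chains and giant coding sequences, low in themselves, had median differences of -0.78 and -0.14. Megabase genes at fragile sites had -2.21, with 3 of 22 above. The group with the longest introns is open-ended, from 102871 intronic bases with a median of 180678. Median intron length was 289621 bases in dynein heavy chains and 1363580 in fragile-site genes, so the grid did not match these families in intron length. The group with the longest coding sequences is open-ended too, from 2625 bases with a median of 3636. Median coding length was 13389 bases in dynein heavy chains and 14540 in giant coding sequences, so coding length was not matched there either.

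Other families were below the median of their group as well. The median difference was -4.63 in replication-dependent histones and -1.70 in the mitochondrially encoded mRNAs, with 0 of 49 and 0 of 9 above. Messages known for detained introns, which stay in the nucleus partly spliced, were above their group in 1 of 22 cases, with a median difference of -0.79. CLK4, an SR protein kinase, had 1231 in input and 495 in PABPC RIP (-1.31, SE 0.12), a difference of -2.02 from genes of like length, and RBM39, a splicing factor, differed by -0.69. PABPN1 was the 1 member above (1.87, SE 0.14). SR splicing factors were above in 2 of 12 cases (-0.46), although 9 of 12 were enriched, and SRSF4 was lowest (-0.45, SE 0.16, adjusted p = 0.011). Short-lived messages were above in 9 of 29 cases (-0.28), although 28 of 29 were enriched. Zinc finger genes, the largest family, were above in 128 of 433 cases (-0.39), with 112 enriched and 107 depleted and a median of 0.01, which became -0.13 when centred on the median of all genes. ZNF804A was lowest (-4.65, SE 0.15) and ZNF358 highest (2.45, SE 0.15).

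**Figure D5:**
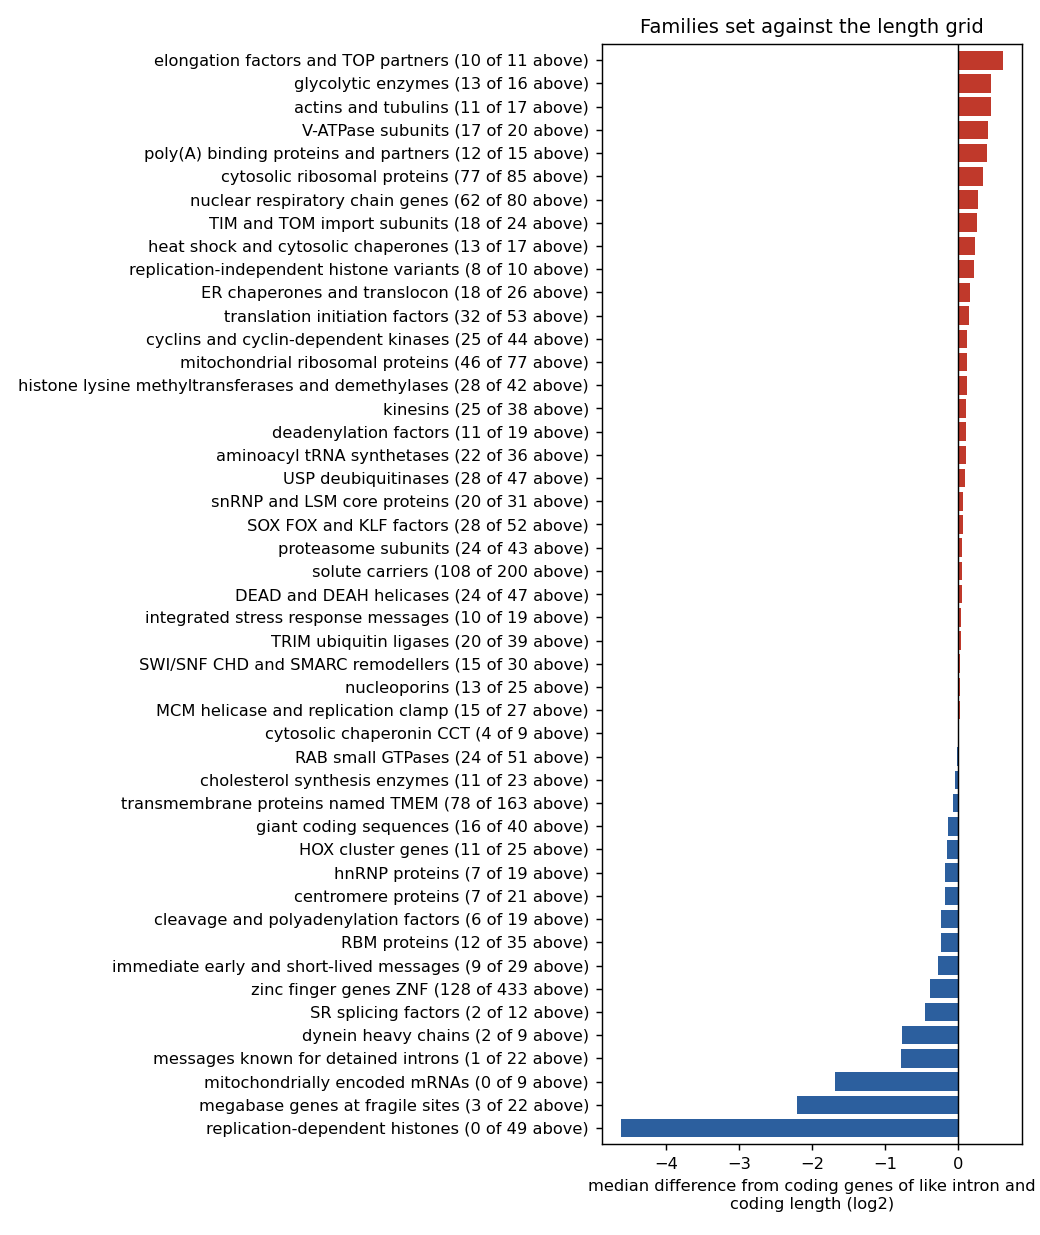
Median difference, in log2 units, between the fold change of each family's coding genes and the median of coding genes in the same group of intron and coding length; labels give how many genes of how many were above that median, for the plotted families of at least 9 coding genes. Of these, elongation factors and their partners were furthest above (0.62), and replication-dependent histones furthest below (-4.63).

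Histone genes split by kind. Of 49 replication-dependent histones, 48 were depleted, from -3.63 (SE 0.13) in H4C4, and H2BC6 was not called (-0.52, SE 0.23, adjusted p = 0.0368). The 47 with an annotated stem-loop had a median of -2.84. The canonical transcripts of the other 2, H2BC21 and H3C6, lacked it, and both were depleted (-2.04, SE 0.17 and -2.01, SE 0.26). Of 10 variants whose messages are polyadenylated, 8 were enriched, with H1-10 highest (2.35, SE 0.11), and H3-3A was depleted (-0.76, SE 0.17).

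Host genes and other named lncRNA groups differed among themselves. Over all 1722 lncRNAs 21.3% were enriched and 59.8% depleted, and over all genes 38.4% and 32.4%. Of 29 snoRNA hosts, 17 were enriched and 7 depleted (median 0.73). Of 31 microRNA hosts, 4 were enriched and 25 depleted (median -2.25), with MIR181A1HG at -5.06 (SE 0.18) and MIR1915HG at 2.07 (SE 0.13). Intergenic lncRNAs named LINC had 23 enriched and 161 depleted of 213 (median -1.98), antisense lncRNAs 98 and 208 of 390 (-0.77), and divergent lncRNAs named DT 26 and 44 of 97 (-0.43). The antisense shares (25.1% and 53.3%) were near those of all lncRNAs, and the LINC shares were 10.8% and 75.6%. In the DT group they were 26.8% and 45.4%, in snoRNA hosts 58.6% and 24.1%, and in microRNA hosts 12.9% and 80.6%. Median intron length was 5231 bases in snoRNA hosts, 53603 in microRNA hosts and 82415 in LINC genes.

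The PABPN RIP, which shared the input libraries, was used to see where PABPC differed. Over 14581 genes in both comparisons, 4873 (33.4%) were higher with PABPC and 5263 (36.1%) with PABPN, by a two-sided normal test of the difference that treats the errors as independent although the input is shared, which makes the error of the difference too large. In coding genes with over 200 kb of intron the medians were -2.16 with PABPC and -0.26 with PABPN, and 976 of 1082 were higher with PABPN. With introns of 1 kb or less the medians were 1.81 and -0.01, and 310 of 395 were higher with PABPC. Between these ends of the intron axis the median thus moved less with PABPN than with PABPC. MALAT1 was -5.01 with PABPC and -1.15 with PABPN, a difference of -3.87 (SE 0.18, adjusted p = 8.08e-97), and NEAT1 -1.71 and 1.81, a difference of -3.52 (SE 0.18, adjusted p = 1.51e-82). Among messages known for detained introns, 16 of 22 were higher with PABPN and 2 with PABPC. Replication-dependent histones were low with both, at -2.79 with PABPC and -4.59 with PABPN, and 44 of 49 were higher with PABPC.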

How the data were processed

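Total RNA-seq of 3 input and 3 PABPC RIP libraries was analysed from a deposited table of the authors' own comparison. Per the labels and the study's methods, reads were aligned with STAR to hg38, counted per gene with featureCounts 2.0.2 (introns and exons together, minimum overlap 20 bases, on an annotation derived from GENCODE release 34 with NCBI genes added, overlapping stretches removed and genes with upstream transcription left out) and compared in DESeq2. The columns deposited by the authors were baseMean (a signal, the mean of normalised counts), log2 fold change with its standard error, the Wald statistic (a score), p-value and adjusted p-value, and a summed exon length. No values per library were given, so these estimates were used as they stand, and 123 repeated entries of a gene were dropped in favour of the first. The check of 9314 genes with a baseMean below 1 showed that 99.6% were sums of whole reads over 6 library sizes, which gave the depths.

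Gene lengths, introns and transcripts came from GENCODE release 44 (14812 of 14844 identifiers matched; 32 did not). Input and RIP means were derived from baseMean and fold change for groups of equal size. Calls used the deposited adjusted p-values, and the difference between both RIPs was tested here with Benjamini-Hochberg adjustment over 14581 genes. Tests were run in Python 3.11.15 with pandas 2.3.3, numpy 2.4.6 and scipy 1.17.1, and were checked on simulated estimates. p-values measure only the spread between these samples. The members and the 58 lists were chosen with earlier results of these data known. Named genes were the 10 with the most reads in each group, the 2 highest and 2 lowest called per class of at least 5 genes, the highest, middle and lowest of each list (all members of short lists), and the 10 longest and shortest abundant coding genes; others are said to be chosen after their values were seen, as were the single-exon genes, the grid examples and those of the PABPN comparison. A few genes, a family and their sequences are not reported here.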

Additional observations from a re-analysis of the deposited data

How the results depend on the processing

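No paired analysis was possible because the tables held no values per library, and leaving out single replicates could not be run for the same reason. With a log2 limit of 1, enriched genes went from 5703 to 3712, and enriched minus depleted coding genes from 1672 to 1042; under the other 7 settings the enriched genes numbered 3959 to 6501, and under all 8 the depleted ones 3427 to 6567 (4802 here). Centring on the median of all genes (0.14) moved the coding median to 0.11 and turned the medians of zinc finger genes (-0.13), cleavage and polyadenylation factors (-0.10) and deadenylation factors (-0.054) below 0; with the limit of 1, depleted zinc finger genes outnumbered enriched ones (-13). With a baseMean above 200 the lncRNA median was -1.55 (703 genes). The correlation of the fold change with length over coding genes was -0.48 for the deposited length, -0.22 for the 5′ UTR, -0.19 for the 3′ UTR and -0.76 for introns. That for introns lay between -0.81 and -0.73 within 5 groups by input level, without ribosomal protein and respiratory chain genes, and above a baseMean of 200; with the introns of the canonical transcript, an alternative added after seeing the data, it was -0.77. Counts of the difference between both RIPs lay between 3570 and 5120 for PABPC and 3877 and 5263 for PABPN. Without a mock precipitate, background RNA cannot be told apart from bound RNA.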

Other observations

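Of 8638 genes with a baseMean above 1000, 21 had an SE above 0.4, against a median SE of 0.12. The largest was that of SLC7A11, the cystine transporter (-0.26, SE 0.86), followed by PCK2, a mitochondrial PEP carboxykinase (0.99, SE 0.83), DDIT4, an inhibitor of mTORC1 (1.67, SE 0.82), HSPA1A and HSPA1B, near-identical HSP70 genes that can share reads (0.91, SE 0.82 and 1.30, SE 0.80), and ASNS, asparagine synthetase (0.57, SE 0.72). Above 0.4 lay 6 of the 13 integrated stress response messages of that baseMean and 3 of the 16 heat shock and cytosolic chaperone messages. With PABPN, SLC7A11 and PCK2 had SEs of 0.90 and 0.82. None of these 6 named genes was called, and libraries could not be looked at one by one.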
